A study of Homo sapiens with 16 samples.

Results

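The genes described are those of the cholesterol synthesis pathway that were named by symbol: HMGCS1, IDI1, FDPS, SQLE and LSS, which encode enzymes, and INSIG1, which encodes a regulator of the pathway. The list named 7 genes, of which 6 were measured under the array annotation and 1, FDFT1, was not analysed here. They were 6 of 19775 genes with a probe set listed for that gene alone. Each was read from 1 probe set, a group of short probes for 1 transcript, namely the one with the highest mean intensity among those listed for that gene alone. The list was labelled as synthesis and uptake genes, but none of the 6 measured genes encodes a lipoprotein receptor, so they are called synthesis genes below.

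The arrays covered 16 established human lines of T-ALL, the acute lymphoblastic leukemia that arises from T-cell precursors. The lines were ALL-SIL, CCRF-CEM, DU528, HSB-2, JURKAT, KOPT-K1, LOUCY, MOLT-16, MOLT-4, P12-ICHIKAWA, PEER, PF-382, SKW-3, SUP-T11, SUP-T13 and TALL-1. Each was grown untreated for 24 hours in RPMI medium with 10% fetal bovine serum and antibiotics, seeded at 1 density, and its total RNA was hybridised to 1 Affymetrix U133 Plus 2.0 array. The lines formed 1 group with no control and no repeat culture, so a line's value has no replicate error and each SD is the spread between different lines.

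Cells make cholesterol from acetyl-CoA through mevalonate, isoprenoid pyrophosphates and squalene, and they also take it up from lipoproteins such as those in serum. When sterols in the endoplasmic reticulum fall, the transcription factor SREBP2, the product of SREBF2, is carried by SCAP to the Golgi, cleaved and released to activate most genes of synthesis and uptake. INSIG1 holds SCAP in the endoplasmic reticulum when sterols are abundant, and it is itself a target of SREBP, which closes a feedback loop.

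Precision is limited by the number of arrays. The median of the whole table was an intensity of 42.4, and array medians ran from 37.6 to 45.0. CD3D, part of the T-cell receptor complex, was at 7095 to 14179 in the 16 lines, and 6 of 9 T-cell marker genes were above the table median in every line. CD3E, CD2 and CD5 were not, being above it in 15, 11 and 13 lines. MOLT-16 was the lowest line for 4 of the 9 and DU528 for 3, against 11.2% and 6.82% of the genes that passed the filter described below. None of 5 hepatocyte and 4 adipocyte markers reached 4 times the table median in any line, and their summed intensities were 94.6 to 193 and 36.7 to 94.1. The same held for 4 of 5 myeloid markers (summed intensity 97.9 to 487), 2 of 3 measured B-cell markers (253 to 500.2) and 4 of 5 stromal markers (159 to 2783). The exceptions were LYZ, up to 385 in DU528, CD79A, at 215 to 411, and SPARC, up to 2592 in LOUCY. In such bulk RNA, fewer cells expressing a gene and less RNA per cell cannot be told apart.

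All 6 genes were well above the table median in every line, the lowest value being 15.8 times it, for LSS in TALL-1. They differed 2.44-fold (FDPS) to 5.43-fold (IDI1) between the highest and the lowest line. JURKAT, DU528 and HSB-2 were the highest 3 lines for HMGCS1, SQLE and FDPS and among the highest 6 for every gene, while P12-ICHIKAWA was lowest for HMGCS1, FDPS and IDI1. On the scale of log2(intensity + 16), the median SD between lines was 0.56 for the 6 genes and 0.41 for the 13310 genes that passed a filter on low values (3rd highest value above the table median). Those 13310 genes are called the tested genes below.

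HMGCS1, the cytosolic HMG-CoA synthase that joins acetoacetyl-CoA and acetyl-CoA, had its highest intensities in JURKAT (5052), DU528 (5019) and HSB-2 (4425). The next lines were TALL-1 (3306), SUP-T13 (3142), CCRF-CEM (2868), MOLT-4 (2429), LOUCY (2264), SKW-3 (2231) and PEER (2210.5). The lowest were ALL-SIL (1907), PF-382 (1886), KOPT-K1 (1749), MOLT-16 (1738), SUP-T11 (1644) and P12-ICHIKAWA (1598). The widest step lay below HSB-2, 0.42 log2 units or 25.4% of the range, so that 3 lines stood above the other 13. The highest line was 3.16-fold above the lowest, and 66.5% of tested genes had a smaller SD than its 0.56.

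IDI1, the isomerase that interconverts the isoprenoid building blocks, had the widest range of the 6 genes. It was at 5193 in HSB-2, 4564 in LOUCY, 4452 in TALL-1, 4253 in DU528, 4009.6 in JURKAT, 3304 in SUP-T13, 3283 in ALL-SIL and 2896 in MOLT-16. It then ran through SKW-3 (2831), PEER (2767), CCRF-CEM (2754), MOLT-4 (2752) and KOPT-K1 (2569.7) to SUP-T11 (1398), PF-382 (1387) and P12-ICHIKAWA (956). The last 3 lines were set off by a step of 0.87 log2 units, 35.9% of the range, so IDI1 split the lines into 13 high and 3 low. Its SD was 0.67, above that of 73.1% of tested genes.

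FDPS, the synthase of farnesyl pyrophosphate from which both sterols and prenyl groups are made, varied least. Its intensities were 5342 in JURKAT, 4742 in DU528, 4496 in HSB-2, 4048 in TALL-1, 4047 in CCRF-CEM, 3906 in SUP-T13, 3775 in PEER and 3654 in PF-382. They were 3421 in KOPT-K1, 3401 in ALL-SIL, 3358 in LOUCY, 3103 in SKW-3, 3000.1 in SUP-T11, 2978 in MOLT-4, 2527 in MOLT-16 and 2190.0 in P12-ICHIKAWA. The same 3 lines led as for HMGCS1, in the same order, but without a clear step below them. The SD of 0.33 exceeded that of 34.0% of tested genes.

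SQLE, the squalene epoxidase that adds the first oxygen on the way to the ring system, was at 4087 in JURKAT, 3865 in DU528, 3798 in HSB-2, 3643 in ALL-SIL, 3268 in TALL-1, 2918 in LOUCY, 2883 in MOLT-4 and 2572 in SUP-T11. It was lower in CCRF-CEM (2505), KOPT-K1 (2504), PEER (2154), SKW-3 (1912), SUP-T13 (1673), PF-382 (1628), P12-ICHIKAWA (1366) and MOLT-16 (1299.7). ALL-SIL, in the lower part of the lines for HMGCS1, was among the highest 4 for SQLE, while SUP-T13 was among the highest 5 for HMGCS1 and among the lowest 4 for SQLE. The range was 3.14-fold and the SD 0.54, larger than that of 64.7% of tested genes.

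LSS, the lanosterol synthase that closes the sterol rings, had a different order of lines. It was highest in HSB-2 (2489), ALL-SIL (2445), DU528 (2264) and JURKAT (2177), followed by SUP-T13 (1657), SUP-T11 (1393), PEER (1290.1), MOLT-16 (1180.1), MOLT-4 (1173) and CCRF-CEM (1144). It was lowest in LOUCY (1045), SKW-3 (903), PF-382 (761), P12-ICHIKAWA (757), KOPT-K1 (687) and TALL-1 (671). The highest 4 lines lay 0.39 log2 units above the others, 20.9% of the range. TALL-1 was the lowest line for LSS but among the highest 5 for each of the other enzymes. The fold between the end lines was 3.71 and the SD 0.64, above that of 71.7% of tested genes.

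INSIG1, the regulator, was at 5899.6 in JURKAT, 5816 in TALL-1, 4692 in MOLT-4, 4320.4 in DU528, 4081 in SUP-T13, 4063 in HSB-2, 3749 in PEER and 3257 in SKW-3. It was at 3192 in CCRF-CEM, 3188 in P12-ICHIKAWA, 2878 in ALL-SIL, 2688 in MOLT-16, 2567 in KOPT-K1, 2239.9 in LOUCY, 2186 in PF-382 and 1242 in SUP-T11. SUP-T11 stood alone at the bottom, 0.81 log2 units below PF-382, a step of 36.2% of the range. P12-ICHIKAWA, the lowest line for 3 of the enzymes, was in the middle of the order for INSIG1, just below the median of 3225. The fold was 4.75 and the SD 0.57, above that of 67.3% of tested genes.

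**Figure D1:**
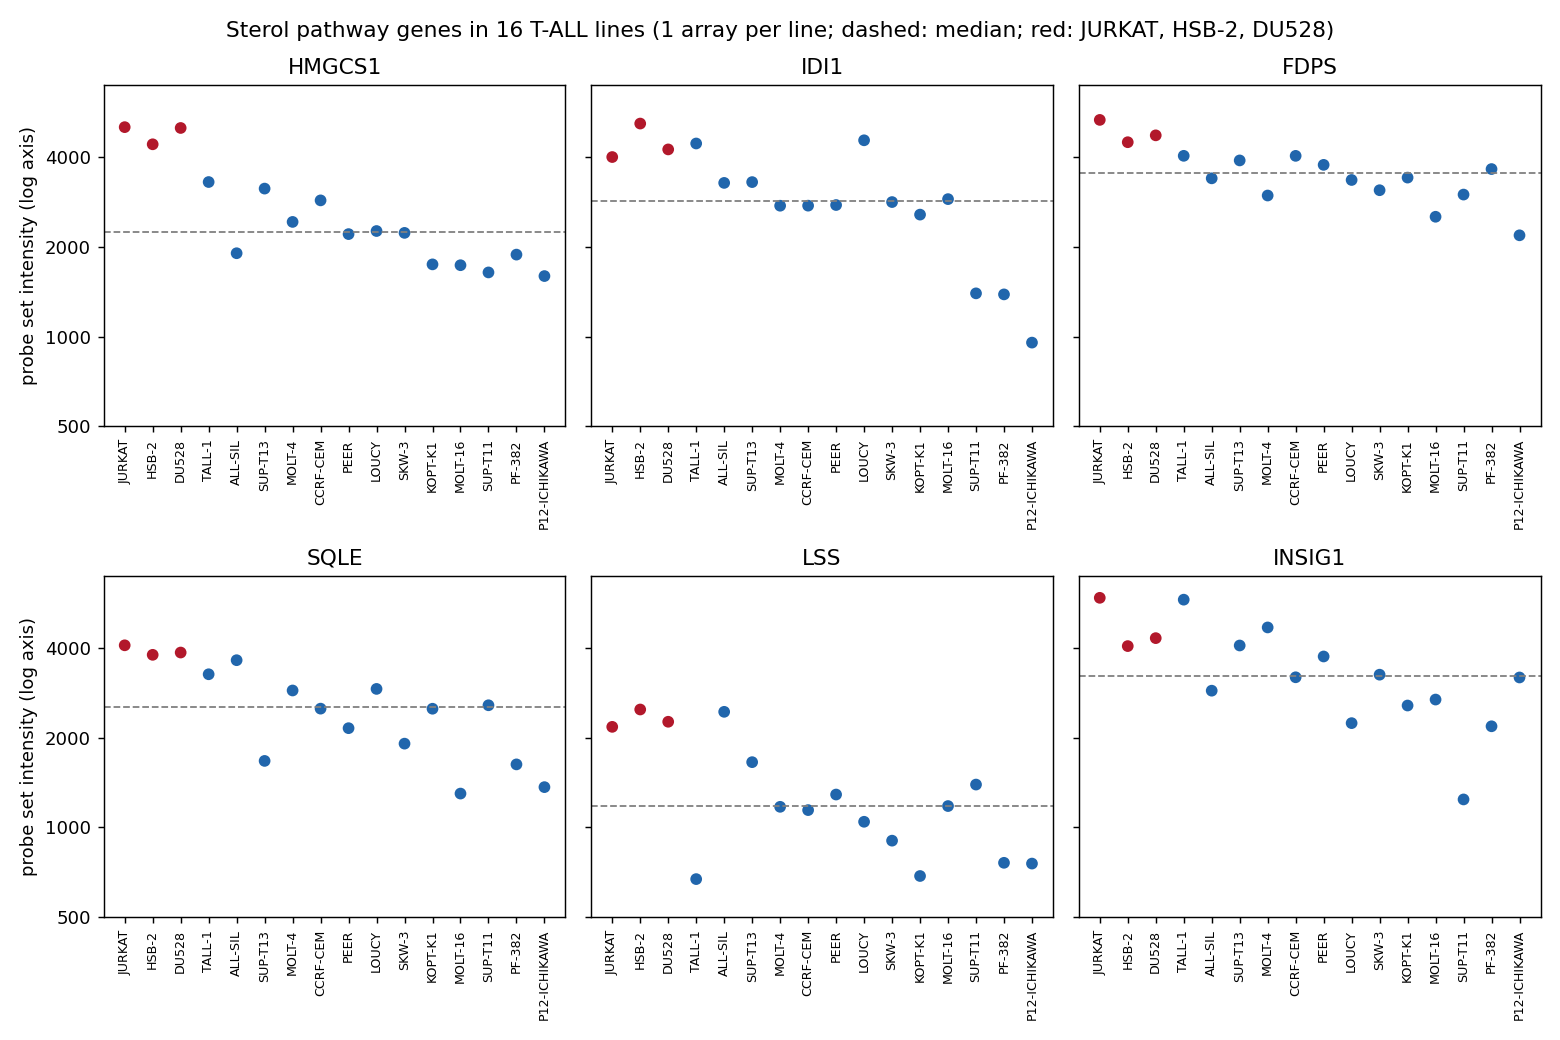
Intensity of the 6 genes (log axis) in each of the 16 lines, 1 point per line, with the lines ordered by the mean of the 6 genes after centring each on its own mean; the dashed line is the gene's median over the lines, and JURKAT, HSB-2 and DU528 are in red. JURKAT, DU528 and HSB-2 lie near the top of each panel, and the lowest line is P12-ICHIKAWA for HMGCS1, FDPS and IDI1, MOLT-16 for SQLE, TALL-1 for LSS and SUP-T11 for INSIG1.

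The only technical yardstick for neighbouring lines was the set of 9 hybridisation spike probe sets, added in equal amounts to every array, whose median SD was 0.13 and whose largest was 0.17 log2 units. Of the 15 steps between neighbouring lines, 4 exceeded 0.13 for HMGCS1, 7 for SQLE, 4 for FDPS, and 5 each for IDI1, LSS and INSIG1. The other neighbours in each order did not differ beyond that spread. The spikes do not carry the variation between cultures, which was not measured.

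Where a gene had further probe sets, most had similar but not identical profiles over the lines. The other probe sets of SQLE had r = 0.983, 0.982 and 0.761 with the one used, those of INSIG1 0.992 and 0.935, that of HMGCS1 0.913, and those of LSS 0.963 and 0.729, and FDPS had no other. Spearman's rho for these 8 probe sets ran from 0.721 to 0.994, and the highest line changed for some, to DU528 for HMGCS1 and to TALL-1 for 1 of SQLE. IDI1 was the exception: 1 further probe set matched the one used (r = 0.999), while 2 dimmer ones had r = 0.292 and 0.362 and were highest in TALL-1. The IDI1 probe set used and its close match are of the kind that the array maker marks as possibly detecting other transcripts as well.

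After each gene was centred on its mean over the lines, JURKAT had a mean of 0.74 log2 units over the 6 genes, HSB-2 0.66 and DU528 0.65, and each was above the gene's mean for 6 of 6 genes. At the other end were P12-ICHIKAWA at -0.75, below the gene's mean for all 6 genes, PF-382 at -0.54, SUP-T11 at -0.50 and MOLT-16 at -0.38. JURKAT was the highest line for 4 of 6 genes and for 5.14% of the tested genes, and HSB-2 for 2 of 6 and 5.85%. P12-ICHIKAWA was the lowest for 3 of 6 and for 6.81% of the tested genes.

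Some lines had unlike values among the 6 genes. TALL-1 had 0.83 log2 units above the mean for INSIG1 and -0.88 for LSS. LOUCY was at 0.69 for IDI1 and at -0.54 for INSIG1, and SUP-T11 was at -1.39 for INSIG1. P12-ICHIKAWA was at -1.55 for IDI1 but at -0.04 for INSIG1.

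**Figure D2:**
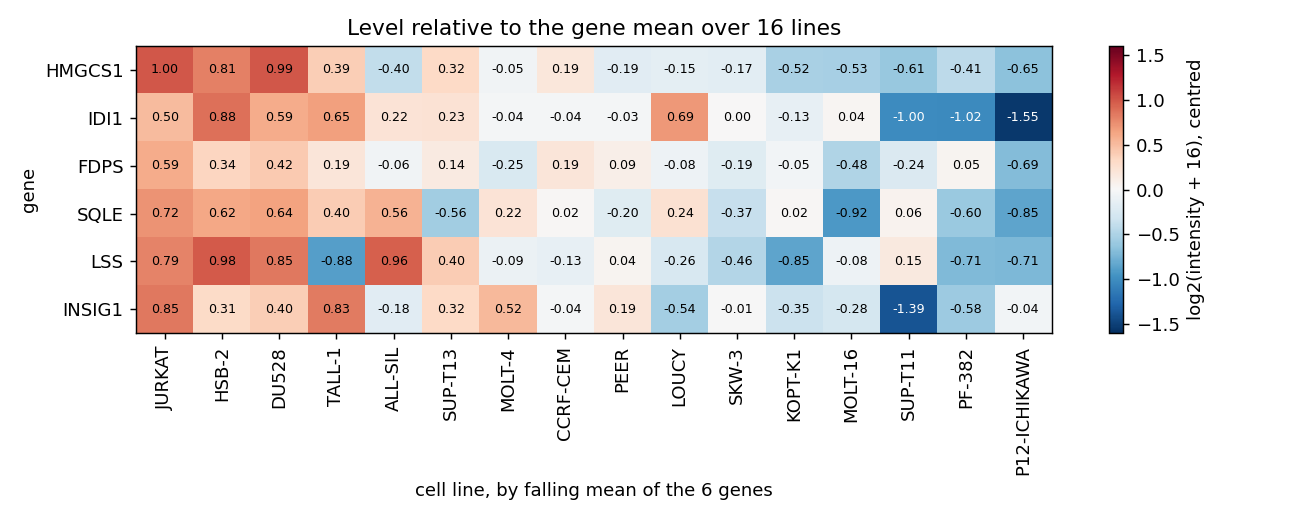
Heat map of log2(intensity + 16) minus the gene's mean over the 16 lines, with genes in rows, lines in columns ordered by their mean over the 6 genes, red above and blue below the gene's mean. JURKAT, HSB-2 and DU528 are above the mean for 6 of 6 genes and P12-ICHIKAWA for 0 of 6, while TALL-1 has 0.83 for INSIG1 and -0.88 for LSS.

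The 6 genes varied together across lines to different degrees. Over the 15 pairs, Pearson's r across the 16 lines had a median of 0.567 and ran from 0.215 to 0.856, and Spearman's rho had a median of 0.559. These are descriptions without a test, since the genes were named as 1 pathway, and the points share the array of each line and its scaling. HMGCS1 had a median r of 0.710 with the other 5 genes and 0.0498 with all tested genes. The same medians were 0.656 and 0.0547 for FDPS, 0.650 and 0.0512 for IDI1, 0.648 and 0.0297 for SQLE, 0.506 and 0.0279 for LSS, and 0.498 and 0.0148 for INSIG1.

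The closest pair was HMGCS1 and FDPS (r = 0.856, rho = 0.829), followed by HMGCS1 and INSIG1 (0.722 and 0.797) and HMGCS1 and IDI1 (0.710 and 0.744). The loosest was LSS and INSIG1 (r = 0.215, rho = 0.244), which was 0.416 without TALL-1 and 0.0986 without JURKAT. SQLE and INSIG1 had r = 0.353, and HMGCS1 and LSS had r = 0.567 against a rho of 0.394. HMGCS1 was farthest from its median in JURKAT and DU528, and with this pair of lines left out its r was 0.767 with FDPS, 0.719 with IDI1, 0.662 with INSIG1, 0.485 with SQLE and 0.357 with LSS.

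Pearson's r was lower without the 3 leading lines, which were the highest for HMGCS1, SQLE and FDPS. Leaving them out also narrows the range of these genes, so r alone cannot show how far the pattern rested on them. Without DU528, HSB-2 and JURKAT, a choice made after the values were seen, the median r fell from 0.567 to 0.319 over the other 13 lines, and 14 of 15 pairs stayed positive. HMGCS1 kept r = 0.709 with FDPS, 0.698 with INSIG1 and 0.657 with IDI1, but had 0.319 with SQLE and 0.0359 with LSS. LSS and INSIG1 were at r = -0.124. Since IDI1 split the lines, its pairs were also taken within its 13 high lines, where r ran from 0.330 with INSIG1 to 0.682 with HMGCS1, with a median of 0.570. The 10 pairs without IDI1 had a median of 0.559.

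**Figure D3:**
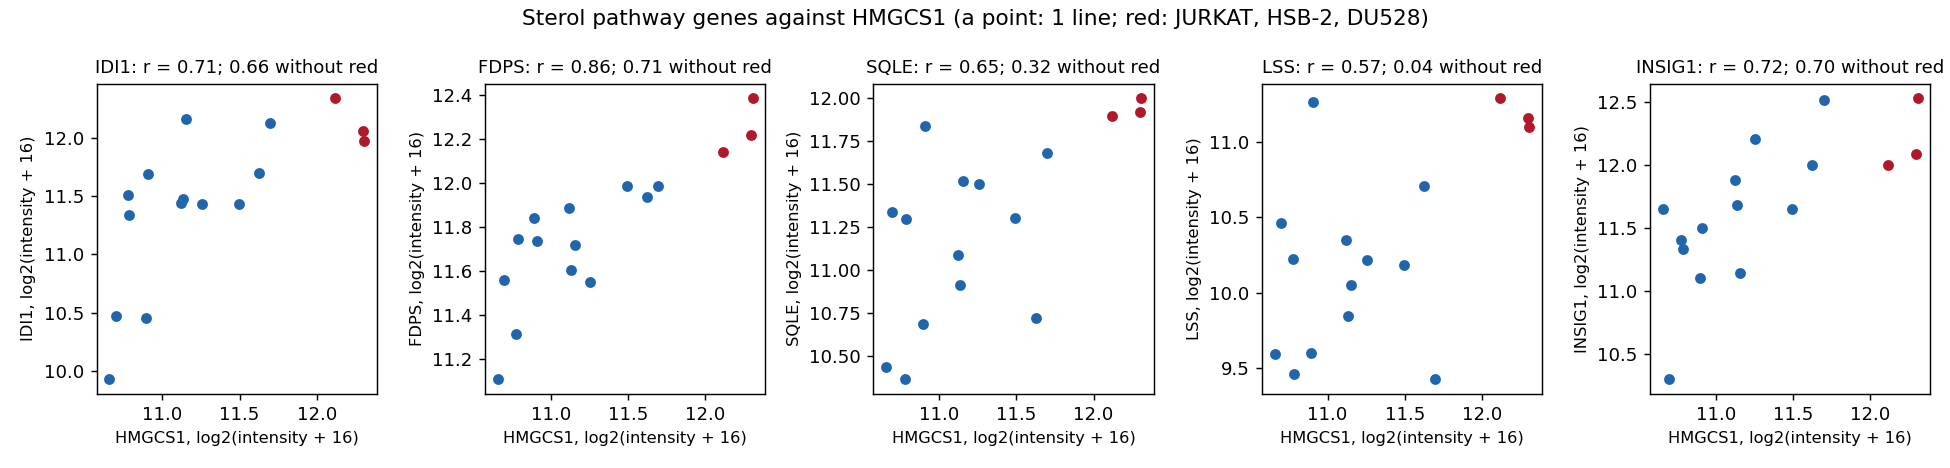
Each of the other 5 genes against HMGCS1, both as log2(intensity + 16), 1 point per line, with DU528, HSB-2 and JURKAT in red. FDPS has the closest relation (r = 0.856) and LSS the loosest (r = 0.567), and without the 3 red lines r is 0.709 for FDPS and 0.0359 for LSS.

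Technical measures of the arrays were set beside these levels. The mean of the 6 centred genes had r = -0.236 with the 3'/5' signal ratio of the ACTB controls (1.44 to 2.03 over the arrays), a sign of RNA quality, -0.307 with the GAPDH ratio and 0.119 with the array median. It had r = 0.518 and rho = 0.432 with the array mean, which ran from 469 to 536, and the part of this in the results was not tested. After quantile normalization, which gives all arrays the same distribution, and under the 6 other planned settings the median pairwise r lay between 0.498 and 0.570. The mean of 14 proliferation genes had r = 0.0168 with the mean of the 6 genes.

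Promoters are shown because the genes varied together and are textbook SREBP targets, whose sites are usually found next to boxes for the factors NF-Y and SP1. RefSeq windows on GRCh38.p14, from 250 bases before to 50 after a start site, were on hand for 5 of the 6 genes, 8 windows in all. The 220 bases before 1 start site of each are printed 5' to 3' on the gene's strand, with capitals for the NF-Y box (ATTGG or its complement CCAAT) and for a short sterol regulatory element (CACNCCAC or its complement).
FDPS, chr1:155308646-155308865, plus strand: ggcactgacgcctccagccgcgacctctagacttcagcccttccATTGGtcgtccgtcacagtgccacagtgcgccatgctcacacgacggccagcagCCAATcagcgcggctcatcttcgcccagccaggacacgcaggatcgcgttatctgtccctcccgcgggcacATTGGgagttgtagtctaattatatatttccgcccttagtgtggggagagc
HMGCS1, chr5:43313413-43313632, minus strand: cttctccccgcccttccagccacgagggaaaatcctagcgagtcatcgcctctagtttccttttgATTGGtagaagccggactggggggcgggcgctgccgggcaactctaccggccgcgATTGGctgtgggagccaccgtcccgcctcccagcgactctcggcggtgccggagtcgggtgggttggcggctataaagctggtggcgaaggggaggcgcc
INSIG1, chr7:155297658-155297877, plus strand: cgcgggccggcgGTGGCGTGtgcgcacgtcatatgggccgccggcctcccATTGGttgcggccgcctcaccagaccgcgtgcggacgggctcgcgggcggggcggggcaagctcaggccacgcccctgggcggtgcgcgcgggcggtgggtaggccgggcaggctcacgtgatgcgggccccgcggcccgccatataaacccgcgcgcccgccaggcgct
IDI1, chr10:1049120-1049339, minus strand: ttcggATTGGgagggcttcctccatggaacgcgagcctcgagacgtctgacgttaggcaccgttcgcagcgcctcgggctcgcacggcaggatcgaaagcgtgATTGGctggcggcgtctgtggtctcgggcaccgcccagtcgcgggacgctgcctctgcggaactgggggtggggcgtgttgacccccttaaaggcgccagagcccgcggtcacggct
LSS, chr21:46228775-46228994, minus strand: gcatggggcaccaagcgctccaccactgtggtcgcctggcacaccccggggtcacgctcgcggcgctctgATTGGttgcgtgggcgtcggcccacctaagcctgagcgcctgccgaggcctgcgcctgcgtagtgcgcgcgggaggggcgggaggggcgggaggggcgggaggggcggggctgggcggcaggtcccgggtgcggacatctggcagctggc

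Each motif was searched on both strands of every window. The NF-Y box ATTGG was in 6 of the 8 windows and in at least 1 window of each of the 5 genes, against 34.6% of all 35116 windows. FDPS had 3 such boxes, at -176, -122 and -51 from its start site, and HMGCS1 had them at -155 and -100. The SP1 box CCCGCCC was in 6 of 8 windows, against 33.1% of all windows, and the E-box CACGTG in 2 of 8, against 7.26%.

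The short sterol element CACNCCAC was in 2 of 8 windows, against 5.87% of all. They were the window of INSIG1, at -208 on the complementary strand (GTGGCGTG), and 1 window of IDI1 other than the one printed. The longer form TCACNCCAC, which contains the short one, was in 0 of 8, against 1.13%. For comparison, 14 windows of 12 other sterol enzymes held the NF-Y box in 10 windows of 9 genes and the SP1 box in 8 windows of 7 genes. The short element and the E-box were each found in 1 gene, SC5D, whose overlapping windows both hold them. A match is a run of letters and not a measured site, and a window without one says only that these letters were not in it.

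**Figure D4:**
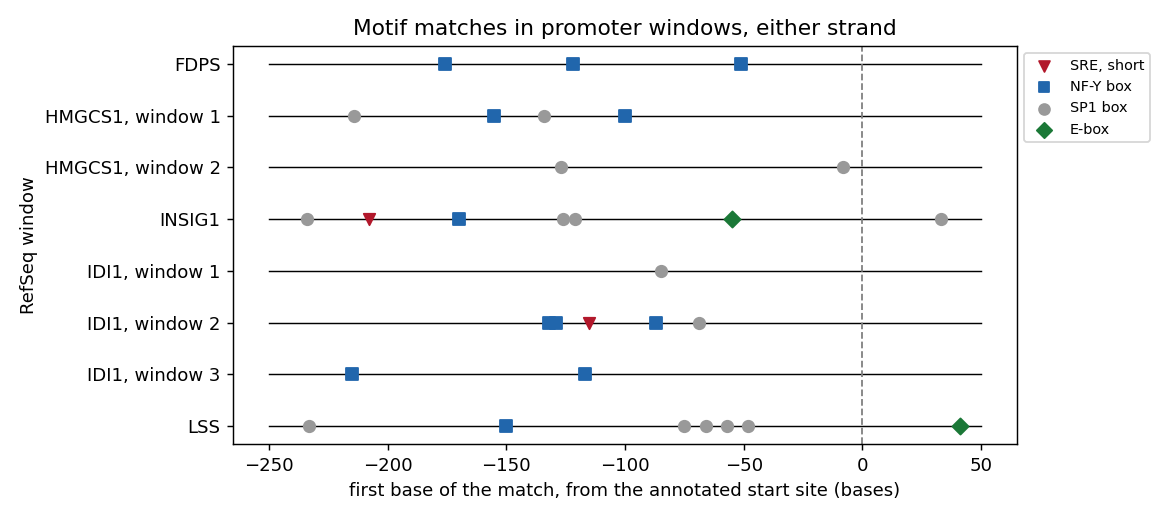
Position of motif matches in the promoter windows of FDPS, HMGCS1, INSIG1, IDI1 and LSS, in bases from the start site, with 1 row per window and 1 mark per match on either strand. NF-Y boxes occur in 6 of 8 windows, SP1 boxes in 6 of 8, and short sterol elements in 2 of 8.

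To see which other genes followed the pathway over the lines, limma was fitted to each tested gene with the log2 level of HMGCS1 as the regressor. A slope is the change in a gene's log2 value per log2 unit of HMGCS1. No gene passed an adjusted p of 0.05, that is 0% of 13309 genes. At an unadjusted p below 0.05, 627 genes (4.71%) had positive slopes and 350 (2.63%) negative ones. All 5 of the other synthesis genes were among the 4.71%, with a median slope of 0.65 against 0.03 for all genes tested. For IDI1 this rested on the probe sets that may detect other transcripts: with the dimmer one that remains without them its slope was 0.21 (unadjusted p = 0.319), and 4 of the 5 genes were at that p.

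FDPS had rank 3 of the 13309 genes by p, with a slope of 0.50 (SE 0.09, adjusted p = 0.106, limma). INSIG1 had rank 32, with a slope of 0.73 (SE 0.18, adjusted p = 0.344, limma), and IDI1 rank 37, with 0.86 (SE 0.22, adjusted p = 0.385). SQLE had a slope of 0.62 (SE 0.19) and LSS 0.65 (SE 0.24), with adjusted p-values of 0.457 and 0.535. The adjusted p of FDPS in limma ran from 0.0614 to 0.949 over the alternatives, and DU528 was the single line whose loss raised it most, to 0.356. Without DU528, HSB-2 and JURKAT, positive genes at an unadjusted p below 0.05 fell from 627 to 370 over all genes. Of the 5 synthesis genes 3 stayed below that p, namely INSIG1, FDPS and IDI1. The slopes of these 3 were not lower without those lines, at 1.11, 0.54 and 1.24, while SQLE had 0.43 and LSS 0.05. LSS also missed that p without DU528 alone (p = 0.0520) and without HSB-2 alone (p = 0.0524). With the mean of all probe sets of each gene, the slope was 0.42 for LSS and 0.47 for IDI1.

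With INSIG1 as the regressor, 0% of 13309 genes passed the adjusted p in limma, 5.12% had positive slopes at an unadjusted p below 0.05 and 3.16% negative ones. Of the other 5 synthesis genes 3 were among the 5.12%: HMGCS1 (slope 0.71, SE 0.18, adjusted p = 0.391), IDI1 (0.66, SE 0.25, adjusted p = 0.525) and FDPS (0.29, SE 0.13, adjusted p = 0.590). SQLE had a slope of 0.33 (SE 0.22) and LSS one of 0.24 (SE 0.28), neither with an unadjusted p below 0.05. FDPS was close to that limit and missed it on leaving out any of 8 lines of the 16, with a slope of 0.21 (p = 0.149) without JURKAT. IDI1 missed it without SUP-T11 (p = 0.0960) and without the probe sets that may detect other transcripts (slope 0.36, p = 0.0628). Without DU528, HSB-2 and JURKAT only HMGCS1 of the 5 had an unadjusted p below 0.05. The count over all genes without those lines is not given here.

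SREBF2, the gene of the pathway's main activator, was not among the named genes. It was at 554 in HSB-2, 504 in MOLT-4, 468 in DU528, 443 in KOPT-K1, 393 in JURKAT, 384 in CCRF-CEM, 383 in TALL-1 and 379 in LOUCY. It was at 353 in ALL-SIL, 319.6 in PEER, 308 in PF-382, 285 in SKW-3, 276 in SUP-T13, 232 in MOLT-16, 228 in P12-ICHIKAWA and 198 in SUP-T11. The lowest 3 lines for SREBF2 were also the lowest 3 for HMGCS1, while KOPT-K1 was high for SREBF2 and low for HMGCS1.

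With SREBF2 as the regressor, limma again called 0% of 13309 genes at an adjusted p of 0.05, with 4.59% positive and 2.15% negative at an unadjusted p below 0.05. Of the 6 synthesis genes 5 were among the 4.59%, and the median slope of the 6 was 0.81 against 0.04 for all genes tested. SQLE had the smallest p of them, rank 14, with a slope of 0.95 (SE 0.24, adjusted p = 0.654, limma). IDI1 had a slope of 1.10 (SE 0.32), HMGCS1 0.86 (SE 0.28), INSIG1 0.77 (SE 0.30) and FDPS 0.50 (SE 0.17), with adjusted p-values of 0.654 to 0.709. LSS, with 0.44 (SE 0.39), was the exception. The slope of INSIG1 rested in part on SUP-T11, the lowest line for both genes: without it the slope was 0.43 (unadjusted p = 0.177). With the mean of all probe sets of each gene, the slope of INSIG1 was 1.51 and that of HMGCS1 1.35. Without probe sets that may detect other transcripts, for SREBF2 and IDI1 alike, the slope of IDI1 was 0.48 (unadjusted p = 0.145). Without DU528, HSB-2 and JURKAT only SQLE and IDI1 of the 6 had an unadjusted p below 0.05. The count over all genes without those lines is not given here either.

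Of 15 other enzymes of the sterol pathway on a list drawn up for this comparison, 12 were measured and tested. None passed the adjusted p in the limma fit on HMGCS1, and 6 of 12 had positive slopes at an unadjusted p below 0.05, with none negative, against 4.71% and 2.63% of all genes tested. The median slope of the 12 was 0.29 against 0.03. MSMO1, the sterol C4-methyl oxidase, had a slope of 0.85 (SE 0.20, adjusted p = 0.314), with intensities from 841 in PEER to 3814 in DU528 and 4151 in JURKAT. ACAT2, which makes the acetoacetyl-CoA that HMGCS1 uses, had 0.69 (SE 0.18) and ran from 769 in SUP-T11 to 2999 in JURKAT and 3079.99 in DU528. The other 4 were HSD17B7 (0.36), DHCR7 (0.42) and NSDHL (0.32), of the late steps, and MVK (0.26), the mevalonate kinase.

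Of 9 tested genes that control SREBP 1, SREBF2 itself, had an unadjusted p below 0.05 with HMGCS1 (slope 0.45, SE 0.16). The shares of all genes tested were 4.71% positive and 2.63% negative. The median slope of the 9 was 0.10. SREBF1, whose product chiefly drives fatty acid synthesis, had a slope of -0.61 (SE 0.46, adjusted p = 0.803, limma). It was at 43.5 in DU528 and between 545 and 1406 in the other lines. Its sign depended on how the lines were weighed: with the mean of the 6 synthesis genes SREBF1 had r = -0.231 but rho = 0.188.

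Among 10 tested genes of sterol uptake and trafficking, 1 had an unadjusted p below 0.05 on HMGCS1, against 4.71% positive and 2.63% negative of all genes. It was STARD4, which carries cholesterol between membranes (slope 0.84, SE 0.24, adjusted p = 0.385, limma). Its intensities ran from 346 in SUP-T11 to 2338 in TALL-1, with 1250 in HSB-2 and 1041 in JURKAT. STARD4 was also the 1 of 10 uptake and trafficking genes at an unadjusted p below 0.05 with INSIG1 (slope 0.92) and with SREBF2 (1.08). The shares of all genes tested were 5.12% positive and 3.16% negative on INSIG1, and 4.59% and 2.15% on SREBF2. The lipoprotein receptor genes VLDLR, at 5.63 in ALL-SIL to 1015 in MOLT-16, and LRP8, at 466 in SUP-T11 to 2193 in TALL-1, were not at that p in any of the 3 fits.

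The shares of all genes tested to set beside the next counts are again 4.71% positive and 2.63% negative. Of 4 tested genes of sterol efflux and the oxysterol receptor LXR, 0 had an unadjusted p below 0.05 in limma. All 4 slopes on HMGCS1 were below 0, with a median of -0.35, but each was smaller in size than its SE. Over all 13309 genes, 7498 slopes on HMGCS1 were positive. On SREBF2, 2 of the 4 slopes were positive, with a median of 0.25, and on INSIG1 1 of the 4. Of 10 fatty acid synthesis genes 2 had an unadjusted p below 0.05 on HMGCS1, ELOVL5 (slope 0.38) and ACLY (0.26), which makes the cytosolic acetyl-CoA for both pathways. Of 12 genes of the non-sterol isoprenoid branch 2 were positive, RABGGTA (0.39) and RABGGTB (0.26), both subunits of a Rab prenyl transferase, and 1 negative, FNTA (-0.30), a subunit of farnesyl transferase. CDK1 (0.23) was the 1 of 14 proliferation genes at that p. A count of 1 in 14 is near these shares. These lists are described by their counts, and no list was tested against other genes.

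In limma with INSIG1 as the regressor, 5.12% of all genes tested were positive and 3.16% negative at an unadjusted p below 0.05. Of the 12 other sterol enzymes, 3 had positive slopes at that p. They were ACAT2 (slope 0.73, SE 0.16, adjusted p = 0.391, rank 7), MVK (0.33) and HSD17B7 (0.26). Of the 9 genes that control SREBP, 3 were positive, SREBF2 (0.39), ERLIN1 (0.53) and the site-1 protease gene MBTPS1 (0.31), and 1 negative, the ubiquitin ligase gene RNF139 (-0.27). Of the 10 genes on the fatty acid list, ELOVL5 (0.44), ACLY (0.28), the desaturase gene FADS2 (1.09) and TMEM97 (0.60) were positive. TMEM97 stood on that list but encodes the sigma-2 receptor, a sterol-regulated protein that binds NPC1, and not an enzyme of fatty acid synthesis. The proliferation genes at that p were CDK1, CCNA2 and BUB1, 3 of 14, all positive. SUP-T11, far the lowest line for INSIG1, was also lowest for ACAT2, MVK, SREBF2, ERLIN1, ELOVL5, ACLY, FADS2 and TMEM97. It was lowest for CDK1, CCNA2 and BUB1 too, and highest for RNF139, while HSD17B7 and MBTPS1 were lowest in MOLT-16. Without SUP-T11, 223 of all genes had positive slopes at that p, against 681 with it. The slopes of these listed genes without that line are not given here.

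With SREBF2 as the regressor, 3 of 12 other sterol enzymes were at an unadjusted p below 0.05, all positive. They were ACAT2 (slope 0.94), MSMO1 (0.95) and HSD17B7 (0.35). The shares of all genes tested at that p were 4.59% positive and 2.15% negative. HSD17B7 and ACAT2 were therefore at that p in each of the 3 fits, whose regressors were themselves related. Both were read from probe sets of the kinds that may detect other transcripts, as was SREBF2. None of 8 other genes that control SREBP was at that p in limma. Of the genes on the fatty acid list FASN (0.54), the fatty acid synthase, TMEM97 (0.77) and ELOVL5 (0.42) were, all positive. Of the 14 proliferation genes MCM5 (0.51) and CDK1 (0.28) were positive and AURKA (-0.49) negative.

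**Figure D5:**
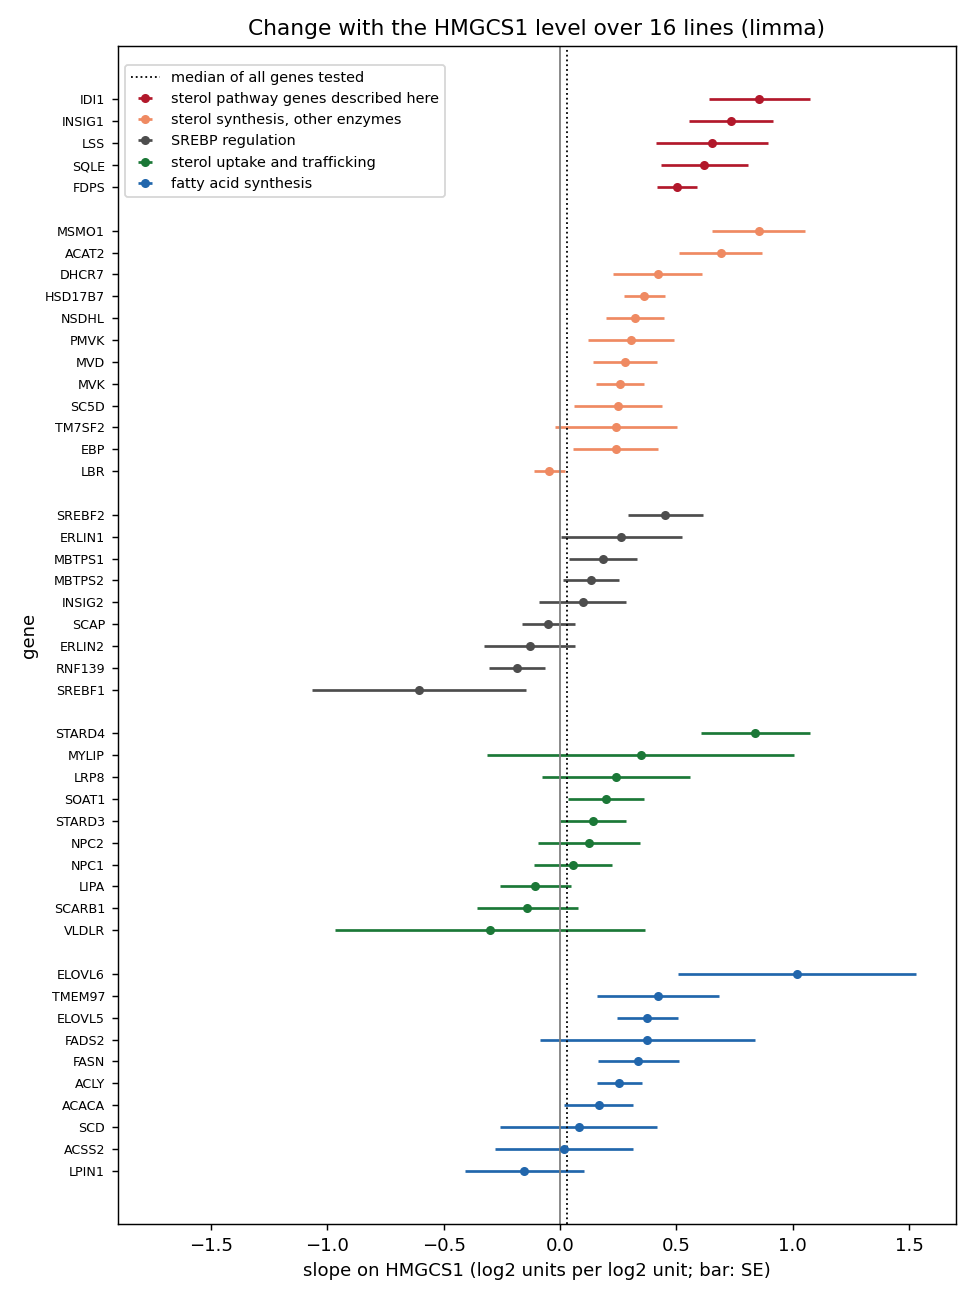
Slope on HMGCS1 (log2 units per log2 unit, limma, bar: SE) for the other 5 synthesis genes and for 4 lists of lipid genes over 16 lines, with the median of all genes tested as a dotted line. The 5 genes lie between 0.50 and 0.86, MSMO1 at 0.85, STARD4 at 0.84, and SREBF1 at -0.61 with a wide bar, a sign that is opposite by rank against the mean of the 6 genes (rho = 0.188).

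The 10 genes whose levels were most like the mean of the 6 centred genes over the 16 lines were MSMO1 (r = 0.809), MIDEAS (0.804), KIF5B (0.799), ZNF25 (0.796), SLC22A25 (0.789), RPH3AL (0.786), PFKP (0.773), PDLIM1 (0.771), CILK1 (0.770) and FPGS (0.758). MSMO1 was the only sterol enzyme of these. SLC22A25 was at 29.7 to 70.9, close to the table median of 42.4. RPH3AL was at 7.26 to 96.1, with a median of 27.1, below the table median. Without DU528, HSB-2 and JURKAT, r was 0.849 for KIF5B, 0.632 for MSMO1 and 0.416 for PDLIM1.

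In the fit on HMGCS1 the smallest p belonged to PDLIM1, a cytoskeletal LIM protein gene (slope 4.31, SE 0.65, adjusted p = 0.0857, limma). It was at 8371 in DU528, 3952 in HSB-2, 2170.0 in SUP-T13 and 2132 in JURKAT, with a median of 28.1 over the 13 lines other than DU528, HSB-2 and JURKAT. After PDLIM1 and FDPS, the positive genes with the smallest p were STAM, RPH3AL, MAFG, MIDEAS, PIKFYVE, RP2, TMED8 and PGBD5, with slopes from 0.50 to 1.47. Of these, RPH3AL and PGBD5 had median intensities of 27.1 and 18.1, below the table median of 42.4. MAFG, a small Maf transcription factor gene, was at 1995 in HSB-2, 1962 in DU528 and 1870.2 in JURKAT, and at 896 to 1598 in the other 13 lines.

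LIN28B, an inhibitor of let-7 microRNA maturation, had the smallest p among negative slopes (-4.29, SE 0.70, adjusted p = 0.0976, limma). It was at 8.71 to 16.9 in DU528, HSB-2 and JURKAT and at 9.61 to 3335 in the other lines. The next negative genes were ZNF550, IQCH-AS1, EYA3, TSEN15, PFKM, LINC00667, GAMT, LINC00526 and LINC00662, with slopes from -0.48 to -2.07. None of these genes passed the adjusted p with all 16 lines.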

How the data were processed

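Total RNA of 16 T-ALL cell lines was measured on 1 array per line. The authors deposited a table of linear probe set intensities. For these, software, background correction and scaling were not given in the sources used here. Of 54675 probe sets, 41097 were listed with 1 gene, 1801 with several and 11777 with none. Values were analysed as log2(intensity + 16) without further normalization. A gene was represented by its probe set with the highest mean, and 13310 genes whose 3rd highest value exceeded the table median were tested. With R 4.3.3, limma 3.58.1 (eBayes with trend and robust) regressed each gene on HMGCS1, INSIG1 or SREBF2, with Benjamini-Hochberg adjustment over all genes and a threshold of 0.05, and was tested on simulated data. Levels, correlations, motifs and figures were made in Python 3.11.15 with pandas 2.3.3, numpy 2.4.6 and matplotlib 3.10.9.

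Alternatives changed the pseudocount (1 or 64), normalization, probe set rule, filter, covariates, test settings and lines. The genes described and all lists were chosen with earlier results of these data known. Named were the 6 synthesis genes, 10 genes per direction with the lowest p on HMGCS1, and the 10 most like the mean of the 6. Of the listed genes at an unadjusted p below 0.05 or with a wide range, some but not all were named. The named-gene rule asked for listed genes past the adjusted p, of which there were 0, so those at the unadjusted p were chosen after their values were seen. No 2 arrays held identical values.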

Additional observations from a re-analysis of the deposited data

How the results depend on the processing

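No paired analysis was possible because all lines belonged to 1 group with 1 array each. No synthesis gene passed the adjusted p in any setting, so that threshold says nothing about stability. Of 464 slopes of single synthesis genes under alternatives 2 changed direction: without DU528, HSB-2 and JURKAT the slope of LSS was -0.12 on INSIG1 and -0.19 on SREBF2. The 13 slopes at an unadjusted p below 0.05 stayed below it in 353 of 377 settings and missed it in 24. Without these 3 lines, chosen after the values were seen, the median pairwise r was 0.319. The synthesis genes at an unadjusted p below 0.05 fell from 5 to 3 for HMGCS1, from 3 to 1 for INSIG1 and from 5 to 2 for SREBF2. Over all genes, positive slopes at that p on HMGCS1 also fell, from 627 (4.71%) to 370. The matching counts over all genes for INSIG1 and SREBF2 are not given here. With fewer lines and a narrower range of the regressor, these falls cannot be read as particular to the synthesis genes. Leaving out 1 line at a time gave 4 to 5, 2 to 3 and 4 to 5 synthesis genes for HMGCS1, INSIG1 and SREBF2. The median pairwise r was then 0.527 to 0.654. The median SD of the 6 genes was 0.53 to 0.58 in that way.

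Counts over all genes moved more. Genes called in limma with a positive slope on HMGCS1 numbered 0 to 2 on leaving out 1 line (PDLIM1 and RPH3AL without LOUCY, HUNK without P12-ICHIKAWA, PDLIM1 without TALL-1), with a negative slope 0 to 1 (LIN28B without MOLT-4), and with a positive slope on INSIG1 0 to 1 (CD84 without TALL-1). With the ACTB ratio as a covariate 1 gene, CAPG, was called on SREBF2. None was a synthesis gene. HUNK and RPH3AL had median intensities of 9.03 and 27.1, below the table median of 42.4. At an unadjusted p below 0.05, positive genes on HMGCS1 (627) numbered 411 after quantile normalization and 370.0 without DU528, HSB-2 and JURKAT. Those on INSIG1 (681) numbered 360.0 with the rank of INSIG1 and 223 to 740.0 on leaving out 1 line, the lowest without SUP-T11. Negative genes on INSIG1 (421) numbered 271 with the rank, and 258 to 486 on leaving out 1 line, again lowest without SUP-T11. They numbered 645 without the filter, where the genes fitted came from all 19775 and were not limited to the 13309 tested. The counts of 645 and 421 therefore have unlike bases. Positive genes on SREBF2 (611) numbered 404 after quantile normalization and 371 to 738 on leaving out 1 line, lowest without SUP-T11. They numbered 286 where probe sets that may match several transcripts were kept only for genes with no other. Negative ones (286) numbered 529 without the filter, again out of more genes, and 189 under that probe set rule. The genes passing the filter can also differ under that rule. The cause of these changes was not tested. With 1 array per line, the spread between cultures of a line is unknown.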

Other observations

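Fatty acid synthesis genes, which SREBP1 chiefly drives, were also uneven over the lines. SUP-T11 was the lowest line for 6 of 10 tested genes of that list, which also holds the sigma-2 receptor gene TMEM97, and for 13.2% of all tested genes, and DU528 was the highest for 5 of 10 and for 9.11%. ELOVL6, a fatty acid elongase gene, ran from 120.1 in SUP-T11 to 2119 in HSB-2 and 3658 in DU528. SCD, the stearoyl-CoA desaturase gene, was lowest in DU528 at 1649 and highest in TALL-1 at 9824. SREBF1 was also lowest in DU528. SUP-T11 was at the same time the lowest line for INSIG1, SREBF2, ACAT2, STARD4 and LRP8.

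The phosphofructokinase genes PFKP and PFKM, which encode the platelet and muscle forms of a glycolytic enzyme, were named under different rules. PFKP, with r = 0.773 to the mean of the 6 genes, was at 973 in SUP-T11 and 5054 in DU528. PFKM had a slope of -2.07 on HMGCS1 (SE 0.49, adjusted p = 0.314, limma) and ran from 80.7 in LOUCY to 2004 in PF-382. The difference between this pair was not tested.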
